A study of Mus musculus with 19 samples.

Results

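Hybrid males between C57BL/6J (B6) and the wild-derived STUS strain carry a STUS allele of PRDM9. Of its autosomal recombination hotspots with a listed B6 share of reads, 54.3% were cut mainly on the B6 homolog and 36.3% on both homologs. The smallest class was cut mainly on the STUS homolog and is described here. Its members were chosen by measured values, the DMC1 reads of one library. They were the autosomal hotspots of the STUS/B6 hybrid that the authors attributed to the STUS allele and at which fewer than 25% of the DMC1 reads came from the B6 chromosome. There were 759 of them, among 8122 autosomal STUS hotspots with a listed B6 share, 17309 autosomal hotspots of that hybrid and 74327 hotspots in the 5 tables of the series. Another 743 autosomal STUS hotspots had no B6 share and could not be placed in a class.

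The libraries came from whole adult testis of male mice. STUS/B6 was the B6xSTUS hybrid with Prdm9 genotype B6/STUS, in which each chromosome pair has one B6 and one STUS homolog. STUS/Hum was the same B6xSTUS cross with genotype HUM/STUS, in which the B6 copy carries human zinc fingers in an otherwise B6 gene. Both hybrids therefore share the STUS allele and the same pair of homologs, and they differ in the other Prdm9 allele. Positions were also compared with 3 B6xSPRETUS hybrids of B6 with Mus spretus, which share the spretus copy of Prdm9 and differ in the other. B6/SPRT (genotype B6/SPRETUS) has the wild-type B6 copy, Hum/SPRT (HUM/SPRETUS) the copy with human zinc fingers, and CAST/SPRT (CAST/SPRETUS) a B6 copy with the DNA-binding array of Mus musculus castaneus. DMC1 single-stranded DNA sequencing was done on 1 library per genotype, and the number of mice behind each library is not given in the sources used here.

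PRDM9 is a histone methyltransferase of meiotic cells whose zinc-finger array binds specific DNA sequences and marks the nucleosomes beside them with H3K4me3. Double-strand breaks then form at some of these sites, and the recombinase DMC1 coats the resected single strands. A binding site that is cut repeatedly in a lineage tends to be lost from it, because repair copies the uncut homolog, a process called hotspot erosion. An allele is therefore often found to cut the homolog on which it did not evolve, and the 759 hotspots described here lie on the other side of that pattern.

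Positions are those of the hotspot tables, in mm10 per the submitters' processing notes. Gene names are from the RefSeq table of GRCm38.p6, which gives the extent of each gene but not its exons, so exonic and intronic positions are not told apart. The center of 1 hotspot of the class fell inside a promoter window of the sequence table at hand, and its sequence is shown because it is the only one that could be read. It lies on chromosome 10 at 78042148, which is 139 bp before the start of Dnmt3l, a cofactor of DNA methylation in germ cells, and also within Aire, a transcription factor gene of the thymus. The window is chr10:78042048-78042248 on the plus strand of GRCm38.p6, and the capitals mark the 21 bases around the center. This was a weak hotspot with a DMC1 signal of 11.8 and a B6 share of 0%, and it was chosen after its values were seen.

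Dnmt3l: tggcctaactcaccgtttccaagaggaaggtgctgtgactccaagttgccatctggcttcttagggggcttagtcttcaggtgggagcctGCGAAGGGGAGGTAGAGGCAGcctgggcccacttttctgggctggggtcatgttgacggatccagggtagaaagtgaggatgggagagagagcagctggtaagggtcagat

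The DMC1 signal is the strength that the authors' caller gave each hotspot, and how it was scaled to depth is not stated. Members had a median signal of 26.2 (95% order-statistic interval over hotspots 24.3 to 28.2), with quartiles of 16.4 and 50.7 and a range of 7.77 to 456. Matched STUS hotspots, with 25 to 75% of the reads from B6, had a median of 37.9. Those cut on the B6 homolog, above 75%, had a median of 86.3. The class therefore made up 9.34% of the STUS hotspots with a B6 share (exact binomial interval 8.72 to 9.999%) and held 3.89% of their signal. Matched hotspots held 21.2% of the signal and B6-homolog hotspots 74.9%. These values come from the library that chose the classes and are given without a test. The same split appeared for the B6 allele in that library, where the 645 B6 hotspots cut above 75% on the B6 homolog had a median signal of 29.3 and the 2813 cut below 25% a median of 137.

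The B6 share of most members was far below the limit. Its median was 5.21% (interval 4.49 to 5.88%), and 532 of 759 members (70.1%) had less than 10%. A share of exactly 0 was listed for 138 members (18.2%), and since the number of reads behind each share is unknown, the precision of these values cannot be given. The 138 members at 0 had a median signal of 24.6, and those in the bins from 1 to 25% medians of 18.1 to 41.0. The 35 members between 0 and 1% had a median of 101.7, but so small a share above 0 can be listed only where many reads were counted, so the bin itself selects strong hotspots. At the limit, the last members inside had 24.8%, 24.6% and 24.6%. There were 24 hotspots at exactly 25%, which stay outside, and the next values above were 25.1%, 25.4% and 25.6%.

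**Figure D1:**
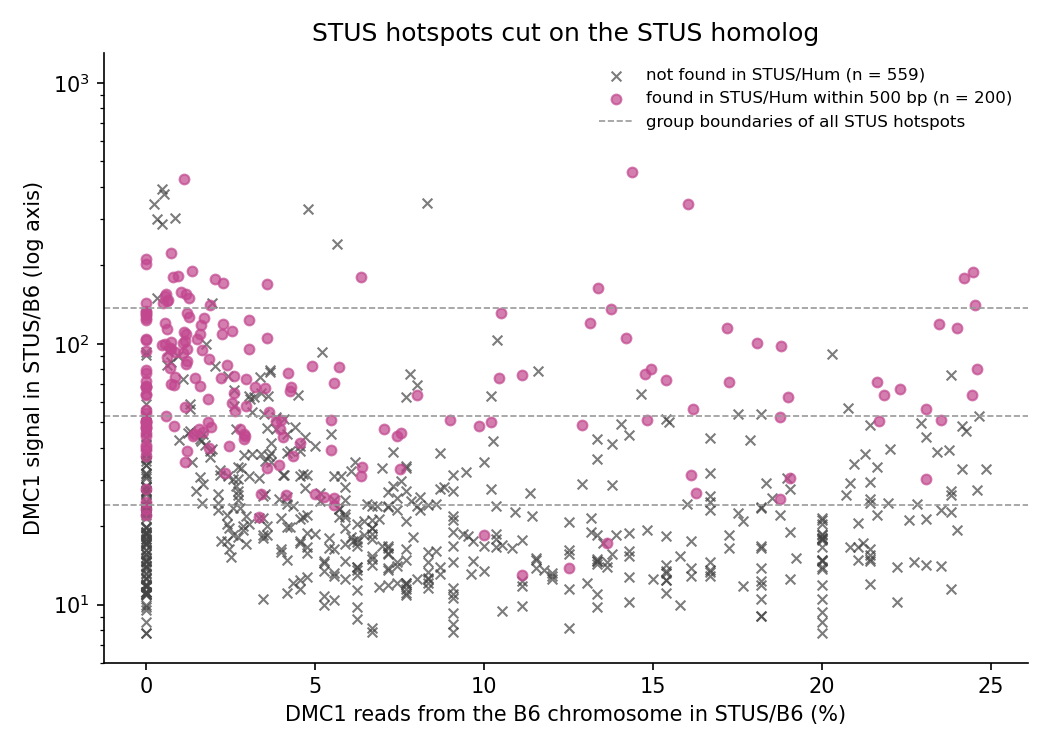
DMC1 signal of each of the 759 members (vertical log axis) against the share of its DMC1 reads from B6 in percent, with circles for members found in STUS/Hum and crosses for those not found. Dashed lines split all STUS hotspots into 4 groups of equal size at 24.2, 52.8 and 137, and several of the strongest hotspots below 1% are crosses.

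The same positions were looked up in STUS/Hum, whose DMC1 values the membership rule did not use. The rule did use the allele, which the authors attributed by comparison with other mice, and these may have included this library. The paper also inferred the STUS motif from hotspots that overlapped between the STUS/B6 and STUS/Hum hybrids. The allele is therefore not a fully separate measure. Shares found carry this limit, both between alleles and for each class of STUS hotspots. A hotspot was counted as found when centers lay within 500 bp. Of the 759 members, 200 were found (26.4%, interval 23.2 to 29.6%), beside 42.9% over all STUS hotspots with a B6 share. STUS/Hum attributed 198 of the 200 to STUS and left 2 unassigned. Matched hotspots were found at 31.5% and B6-homolog hotspots at 53.4%. For the 2813 B6-allele hotspots cut below 25%, an allele that STUS/Hum does not carry, 5 were found (0.178%).

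Detection rose with signal in every class, though not among the strongest members. The classes differ in signal, so they were set side by side within 4 groups of equal size by the signal of all STUS hotspots. In the weakest group 8 of 349 members were found (2.29%), near the 2.58% of matched and 2.13% of B6-homolog hotspots. In the next group members were found at 28.3% (interval 22.5 to 34.6%), above the 11.8% of matched and 8.71% of B6-homolog hotspots. The group after that gave 70.4% for members (interval 62.2 to 77.8%), 61.9% for matched and 55.9% for B6-homolog hotspots. The order changed in the strongest signal group, where 27 of 38 members were found (71.1%, interval 54.1 to 84.6%) against 98.1% of 320 matched and 98.3% of 1673 B6-homolog hotspots. With 1 library per genotype, these intervals cover counting over hotspots only and no test was made between genotypes.

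**Figure D2:**
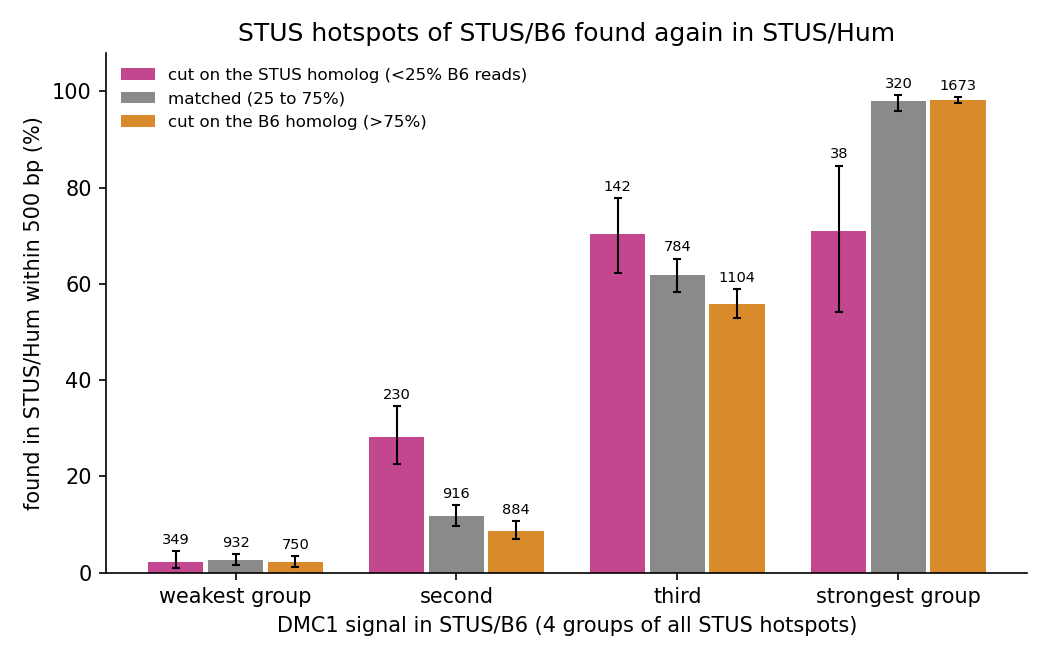
Percent of STUS hotspots of STUS/B6 with a STUS/Hum hotspot within 500 bp (vertical axis), by group of DMC1 signal and by class, with 95% exact binomial intervals as error bars and the number of hotspots above each bar. Members reach 71.1% in the strongest signal group, where the other classes reach 98.1% and 98.3%.

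The 10 strongest members, with signals of 300.3 to 456, show this most plainly. Of these 10, 3 were found and 7 were not, whereas at the same signals 50 of 50 matched and 689 of 690 B6-homolog hotspots were found. Of the B6-allele hotspots cut below 25%, which are also cut on the STUS homolog, 2 of 614 were found at these signals. STUS/Hum does not carry that allele. The allele is not a fully separate measure, which also bears on the high shares found of matched and B6-homolog STUS hotspots. The strongest member lay on chromosome 5 at 107966694 in Dipk1a, a gene for a protein kinase-like protein, with a signal of 456 and 14.4% of reads from B6. It was found in STUS/Hum with a signal of 188 and 7.73%. The next, on chromosome 5 at 9448026 in Elapor2, had a signal of 426 and 1.11%, and was found with 225 and 2.63%. The last of the 3 found was on chromosome 1 at 155634512 in Acbd6, an acyl-CoA binding protein gene, with a signal of 344 and 16.0%, and it was found with 155 and 12.8%. All 3 stayed on the STUS homolog in both libraries.

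The strongest member without a STUS/Hum hotspot lay on chromosome 4 at 154782154, 55.2 kb from Ttc34, with a signal of 391 and 0.466% of reads from B6, and the nearest STUS/Hum hotspot was 78.2 kb away. On chromosome 8 at 79283168, in Mmaa, whose protein serves vitamin B12 metabolism in mitochondria, the signal was 373 with 0.522% from B6. Another, on chromosome 11 at 4629926 in the non-coding gene Gm11961, had a signal of 344 and 0.226%. Their counterparts in STUS/Hum were missing although their signals exceeded those at which almost every other STUS hotspot was found. The member on chromosome 11 at 93500552 in Car10, a carbonic anhydrase-related gene, had a signal of 302 and 0.846%, and that on chromosome 6 at 5396413 in Asb4 had 300.3 and 0.330%. The member on chromosome 18 at 17281281, 9.37 kb from the pseudogene Gm18928, had a signal of 347 and 8.32%.

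The seventh, on chromosome 15 at 70387870, missed the distance rule by little. Its signal was 329 with 4.78% of reads from B6, and a STUS hotspot of STUS/Hum lay 502 bp away with a signal of 176 and 1.55% from B6. With centers up to 1000 bp apart, 4 of the 10 strongest and 28 of the 38 members of the strongest signal group were found (73.7%), so this member changes the count by 1.

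Among the 38 members of the strongest signal group, the 11 not found were spread over 10 autosomes and had a median signal of 302 (range 143 to 391), above the median of 171 of the 27 found. Of these 11, 7 had less than 1% of reads from B6, against 11 of the 27 found. A share between 0 and 1% can be listed only where many reads were counted, so these counts are not separate from signal. The other members not found include a hotspot in Odr4 on chromosome 1 at 150376300 (signal 288, 0.481% from B6) and one in Robo2, an axon guidance receptor gene, on chromosome 16 at 74310962 (signal 240, 5.66%). These 2 were named after their values were seen. Most of the loss lay at the top of the group. Of the 12 strongest members, with signals of 240 or more, 3 were found, and of the other 26, 24 were found (92.3%, interval 74.9 to 99.1%). Over the signals of those 26, matched hotspots were found at 203 of 208 (97.6%) and B6-homolog hotspots at 660 of 685 (96.4%), both within the interval of the members. The split at the 12 strongest was chosen after the values were seen.

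Where a member was found, the homolog cut was usually the same. Of the 200, 196 had a B6 share in STUS/Hum, and 163 of them (83.2%, interval 77.2 to 88.1%) were below 25% there as well, beside 6.38% over all found STUS hotspots. The other 33 lay between 25 and 75%, and 0 of 196 were above 75%, which allows a share of up to 1.53% taking 3 counts as the limit of a count of 0. From the weakest to the strongest signal group, 2 of 7, 48 of 63, 88 of 99 and 25 of 27 were below 25% in STUS/Hum. Matched hotspots that were found were below 25% at 50 of 863 (5.79%), and B6-homolog hotspots at 1 of 2296.

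The B6 share of the members was nevertheless less extreme in STUS/Hum. It had a median of 13.5% (interval 12.1 to 16.3%) there and 2.23% in STUS/B6 at the same 196 hotspots. It was higher in STUS/Hum at 171, lower at 21 and equal at 4, with a median difference of 9.52 percentage points (interval 8.31 to 11.1) and a range of -12.9 to 45.2. Members had been chosen for a low share in STUS/B6, so the direction of this difference is partly set by the choice. The 2 shares were loosely related over these 196 hotspots, which share both libraries (Pearson's r of 0.415, Spearman's rho of 0.379, given as a description).

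Hotspots cut on the B6 homolog had a median share of 98.9% in STUS/B6 and 92.9% in STUS/Hum at the positions found in both, and so also lay nearer the middle in STUS/Hum. Matched hotspots had 55.6% and 45.5%, so that their median crossed from above to below 50%. The strongest members that crossed 25% were those on chromosome 2 at 106680010, 13.2 kb from Mpped2, with 24.5% in STUS/B6 and 57.9% in STUS/Hum, and on chromosome 6 at 107999121, 65.9 kb from Setmar, with 24.2% and 26.9%. Both sat just inside the limit in STUS/B6. Another, in the neuronal catenin gene Ctnna2 on chromosome 6 at 77138855, had 2.26% and 26.4%. Among the strongest that stayed below 25%, the member in the cytoskeletal gene Specc1l on chromosome 10 at 75290883 had 0.730% and 2.56%, and the one in the non-coding gene Gm31516 on chromosome 13 at 76303075 had 0% and 7.69%.

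**Figure D3:**
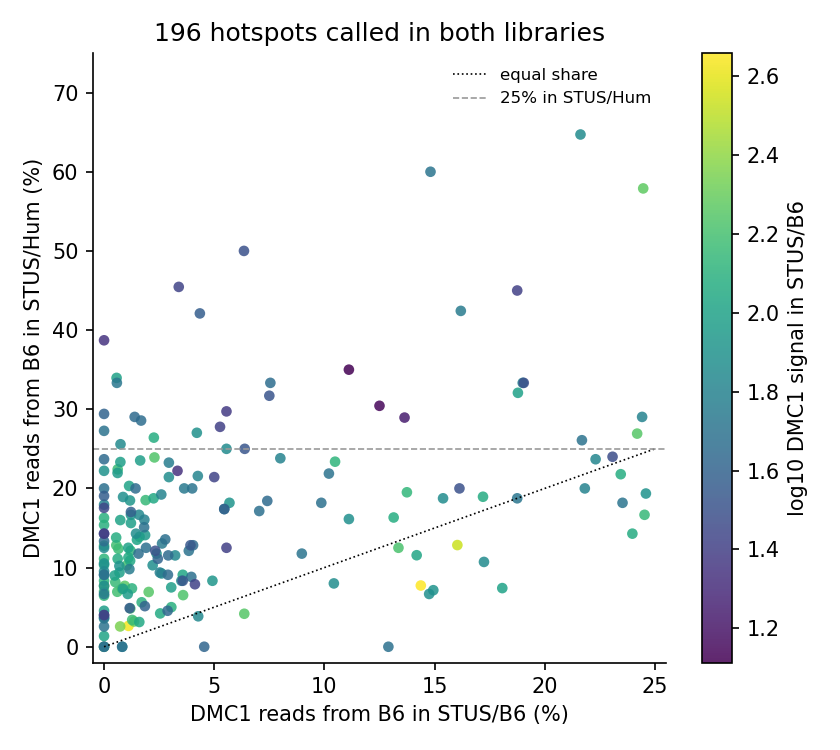
Percent of DMC1 reads from B6 at the 196 members with a value in both libraries, STUS/B6 on the horizontal and STUS/Hum on the vertical axis, colored by log10 DMC1 signal in STUS/B6. The dotted line marks equal shares and the dashed line 25% in STUS/Hum, and 171 points lie above the dotted line while 163 lie below the dashed one.

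At the hotspots found in both libraries, the ratio of STUS/Hum to STUS/B6 signal had a median of 0.365 for members (interval 0.346 to 0.392), 0.283 for matched and 0.257 for B6-homolog hotspots. In every class the ratio was higher in the 2 weaker signal groups than in the 2 stronger, and members are weaker. In the strongest signal group it was 0.265 for members (interval 0.220 to 0.363), 0.251 for matched and 0.256 for B6-homolog hotspots, and in the group above the weakest 0.485, 0.403 and 0.383. Hotspots not found have no ratio, which leaves out 11 of the 38 strongest members. The scaling between libraries is unknown, so only the classes can be set beside each other and not the libraries.

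The rule was also applied from the other side. Of 3398 autosomal STUS hotspots with a B6 share in STUS/Hum, 243 (7.15%, interval 6.31 to 8.07%) were cut below 25% on B6, with a median signal of 25.9. Of these, 214 (88.1%, interval 83.3 to 91.9%) had a hotspot in STUS/B6, all attributed to STUS, though the allele is not a fully separate measure. Among the 213 with a B6 share there, 163 were below 25%, 49 between 25 and 75% and 1 above. The matching shares over all 3398 STUS hotspots of STUS/Hum are not given here. The 88.1% and the 163 of 213 therefore cannot be called particular to these hotspots. Chosen in this direction, the median share was still lower in STUS/B6, at 3.05%, than in STUS/Hum, at 13.5%.

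The positions were then compared with the SPRT hybrids, in which the second homolog is from Mus spretus and no STUS allele or chromosome is present. Of the 759 members, 6 (0.791%) had a hotspot within 500 bp in B6/SPRT and 8 (1.05%) in Hum/SPRT, beside 0.505% and 0.788% over all STUS hotspots. Of the 6 in B6/SPRT, all attributed to the spretus allele, 5 had over 75% of DMC1 reads from B6 and 1 had 25 to 75%, with a median of 97.1%. Of the 8 in Hum/SPRT, 5 were attributed to the spretus allele, 2 to the allele with human zinc fingers and 1 to none. Among these 8, 5 had over 75% and 3 had 25 to 75%, with a median of 86.4%. Their H3K4me3 shares were 3 above 75% and 3 at 25 to 75% in B6/SPRT, and 4 and 4 in Hum/SPRT. By DMC1, these few positions, some of which were the same in both hybrids, were thus mostly cut on the B6 homolog. Shares above 75% were common in the other classes too and are not particular to members. In B6/SPRT they were listed at 9 of 13 matched and 9 of 17 B6-homolog hotspots, and in Hum/SPRT at 10 of 18 and 11 of 26. In CAST/SPRT, 39 members (5.14%, interval 3.68 to 6.96%) had one, beside 9.11%, with 35 attributed to CAST and 4 unassigned. Matched STUS hotspots had one at 7.32% and B6-homolog hotspots at 10.995%. Members had a lower median signal than both other classes, and these shares were not set side by side within groups of signal.

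At the positions shared with CAST/SPRT, in contrast to those shared with B6/SPRT and Hum/SPRT, most listed DMC1 shares were low on B6. A DMC1 share was listed in CAST/SPRT for 25 of the 39, and 15 (60.0%, interval 38.7 to 78.9%) were below 25%, beside 16.6% over all. Matched STUS hotspots were below 25% at 18 of 156 (11.5%, interval 7.0 to 17.6%) and B6-homolog hotspots at 57 of 362 (15.7%, interval 12.1 to 19.9%). H3K4me3, the mark PRDM9 makes, was measured there by an assay separate from DMC1, with values taken as pooled over samples. Its B6 share was below 25% at 17 of 39 members (43.6%, interval 27.8 to 60.4%), beside 9.63% over all, and at 14 of 215 matched and 40 of 483 B6-homolog hotspots (6.51% and 8.28%). The members' intervals lay above those of both other classes for DMC1 and for H3K4me3.

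At the 35 positions attributed to CAST, 15 of 21 DMC1 shares were below 25% and the other 6 between 25 and 75%, with a median of 12%, against a median of 50% over 2471 autosomal CAST hotspots. The median H3K4me3 share was 28.5% against 56.5% over 3443, from 42 to 937 SNP-carrying reads per hotspot at the 39 members (median 225). Of the 25 members with both shares, 11 were below 25% in both. The same count for the other classes is not given, so it cannot be called particular to members. The hotspot in Elapor2 was among the CAST positions, with an H3K4me3 share of 54.4% and no DMC1 share listed. Those of the strongest signal group with both shares lay on chromosome 9 at 89308157, with 4.48% by DMC1 and 17.8% by H3K4me3, and on chromosome 4 at 143229504, with 5.26% and 21.4%. Both also stayed below 25% in STUS/Hum, at 7.34% and 6.52%, and they were named after their values were seen.

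**Figure D4:**
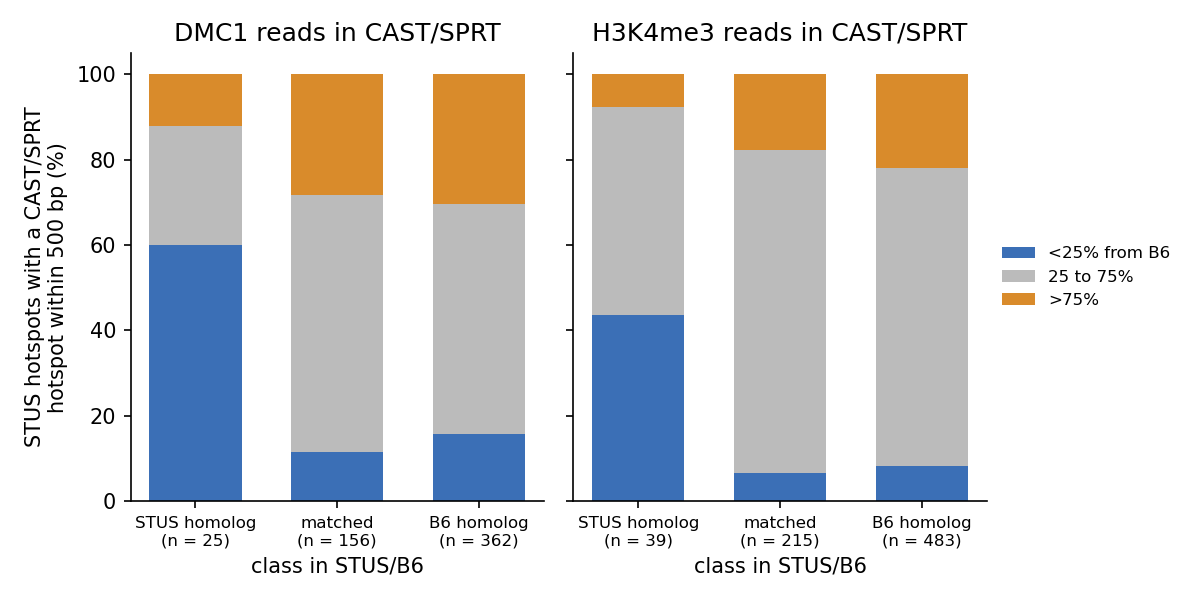
Shares (%) of STUS hotspots with a CAST/SPRT hotspot within 500 bp that had below 25%, 25 to 75% or above 75% of reads from B6, by DMC1 (left) and H3K4me3 (right), for the 3 classes of STUS/B6. Below 25% are 60.0% and 43.6% of members, against 6.51 to 15.7% in the other classes.

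The 4 positions without an allele in CAST/SPRT differed from these, with DMC1 shares of 26.7 to 100%. One of them, in Slc25a15, the mitochondrial ornithine carrier gene, on chromosome 8 at 22383233, was the only member with a hotspot in all 5 tables. Its B6 share was 0.581% in STUS/B6, 33.3% in STUS/Hum and 98.8% in CAST/SPRT.

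Members occurred on all 19 autosomes, from 16 on chromosome 19 to 58 on chromosome 10, in proportion to the STUS hotspots there. Their share of the STUS hotspots ran from 6.93% on chromosome 19 to 11.96% on chromosome 10, and the exact binomial interval of each of the 19 autosomes held the share over all. Across the 19 autosomes, which differ in length and share one library, the counts of members and of STUS hotspots had a Pearson's r of 0.905 and a Spearman's rho of 0.885. The median signal ran from 18.1 on chromosome 19 to 41.7 on chromosome 15. The percent found in STUS/Hum was lowest on chromosome 19, at 6.25% (1 of 16, interval 0.158 to 30.2%). It was highest on chromosome 9, at 47.2% (17 of 36, interval 30.4 to 64.5%). These are the extremes of 19 autosomes, and the counts behind them are small.

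**Figure D5:**
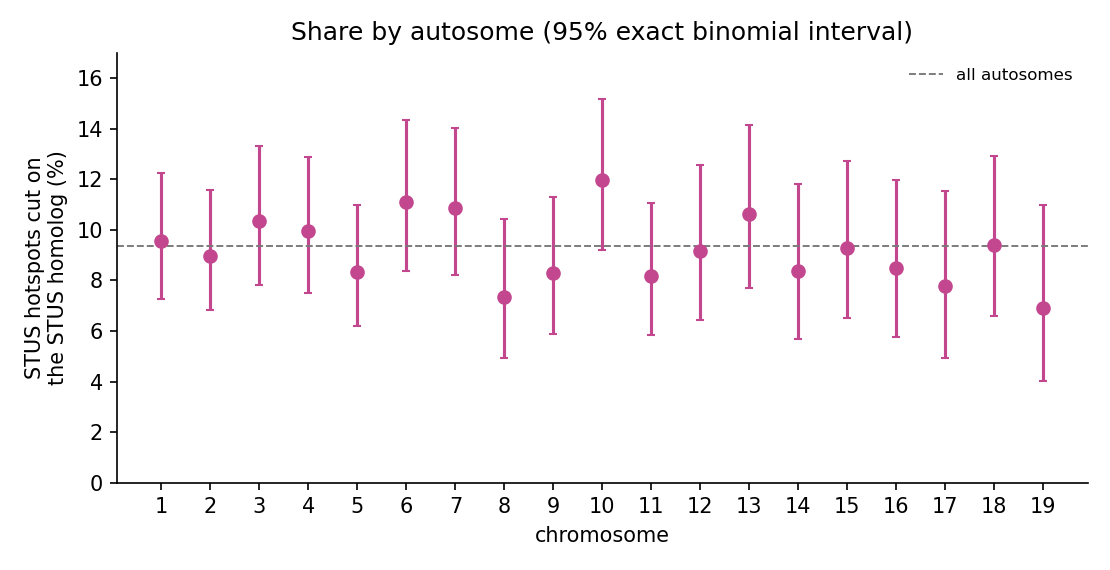
Percent of STUS hotspots with a B6 share that were cut on the STUS homolog (vertical axis) for each of the 19 autosomes (horizontal axis), with 95% exact binomial intervals. The dashed line is the share over all autosomes, 9.34%, and every interval crosses it.

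Along the chromosomes, members were spread from centromere to distal end, with 17.4, 19.5, 21.3, 22.9 and 18.8% in 5 successive segments of equal length. Matched hotspots had a like profile, with 18.6% in the most distal segment, whereas 25.1% (interval 23.8 to 26.4%) of B6-homolog hotspots lay there against 18.8% of members (interval 16.1 to 21.8%). The median distance from a member to the nearest hotspot of STUS/B6 was 47.6 kb (interval 42.0 to 52.3 kb). It was 43.0 kb for matched (interval 40.4 to 44.8 kb) and 41.5 kb for B6-homolog hotspots (interval 39.3 to 43.4 kb). Both of these intervals overlap that of the members. The closest members were on chromosome 7 at 124597900 and 124599340, 1.44 kb apart, with signals of 12.6 and 10.01, and neither was found in STUS/Hum.

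Members lay in and near genes about as often as other STUS hotspots. Of the 759, 430 (56.7%, interval 53.0 to 60.2%) had their center in a gene, beside 59.8% over all, with 374 in protein-coding genes and 56 in other genes only. A gene start was within 2 kb of 24 members (3.16%, interval 2.04 to 4.67%), beside 3.78% over all.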

How the data were processed

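DMC1 SSDS was measured in 1 library for each of 5 genotypes, and H3K4me3 ChIP-seq in the SPRT hybrids, 19 samples in all. The submitters' processing notes name BWA and mm10. Per genotype, 1 table of hotspots was deposited. In it the authors deposited a DMC1 signal whose scaling is not stated, an allele, and a fraction of DMC1 reads from B6 with no read count. Depth is therefore unknown for DMC1. For H3K4me3 the authors deposited a ratio of enrichment over input and a fraction of reads from B6 with its count of SNP-carrying reads, taken as pooled. Tables were matched to genotypes by the alleles they name and by hotspot totals. A further 19 columns (p-values, a mark for sharing, and ChIP and input coverage) were not used here.

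Members were autosomal STUS hotspots whose B6 fraction in STUS/B6 was below 25%, and matched hotspots had 25 to 75%, ends included. The members and lists were chosen with earlier results of these data known. Hotspots of different tables shared a position when centers lay within 500 bp. Intervals are 95%, exact binomial (Clopper-Pearson) for shares and from order statistics for medians. The limit given with a count of 0 of 196 is 3 counts over the total. They describe hotspots of a library, cover counting error only and do not describe mice. No test between genotypes was made. Hotspots named were the 10 strongest members, the 5 strongest that stayed below 25% in STUS/Hum, the 3 strongest at 25 to 75% and 3 above 75% there, 3 on each side of the limit, the closest pair, and the 3 strongest present in all tables. Others are said to be named afterward. Alternatives were limits of 10, 20 and 30%, distances of 250 and 1000 bp, gene starts within 1 and 5 kb, and only hotspots at or above the median signal of the STUS/B6 table. Functions for matching and intervals were tested on simulated data. Python 3.11.15, numpy 2.4.6, pandas 2.3.3, scipy 1.17.1 and matplotlib 3.10.9 were used.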

Additional observations from a re-analysis of the deposited data

How the results depend on the processing

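Of 102 alternatives over 19 values, 78 stayed within the interval of the reported value, and 24 did not. The 7 alternatives on the strongest signal group, added after seeing the data, were among the 78. With the limit at 10, 20 and 30%, members made up 6.55, 8.32 and 10.7% of STUS hotspots, and 37.4, 73.2 and 88.3% of those found were below the same limit in STUS/Hum. Limits of 10 and 30% gave the members 2.95 and 4.47% of the signal, and 10% gave a median signal of 29.5 and a highest share on an autosome of 8.15%. With only hotspots at or above the median signal of the table, members were 5.03% of STUS hotspots, 69.1% were found in STUS/Hum, 89.4% of those found were below 25%, and 7.27% had a CAST/SPRT hotspot. In that subset segments 1, 3, 4 and 5 of the autosomes, counted from the centromere, held 14.5, 28.2, 27.3 and 13.2% of members, the highest share on an autosome was 7.66%, and the lowest 0%, with an exact upper bound of 2.86%. The shares of members in that subset are given without the share of all STUS hotspots at those signals. They therefore cannot be set beside the earlier shares, which are over all signals. Centers within 1000 bp gave 1.71% in B6/SPRT and 2.24% in Hum/SPRT. Gene starts within 1 and 5 kb were near 1.71 and 9.62% of members. For these distances the share over all STUS hotspots at the same setting is not given. It is also not given for the shares below the limits of 10, 20 and 30% in STUS/Hum.

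No paired analysis was possible because each genotype has 1 DMC1 library and the H3K4me3 columns name no sample and are taken as pooled. For the same reason no replicate was left out. Unknown read numbers limit each B6 share, and differences between STUS/B6 and STUS/Hum cannot be told apart from differences between the single libraries.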
